A study of Mus musculus with 23 samples.

Results

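The 9 genes described here carry or shape the Hedgehog signal: Hhip, Ptch1, Smo, Boc, Cdon, Gas1, Gli1, Gli2 and Gli3. They were found by symbol among the 32793 rows of the deposited tables, and all 9 passed the filter on low counts that left 14187 genes for testing. Hhip was chosen by its measured change in the control cells, where it was among the strongest decreases during differentiation, and the others by their place in the pathway. The change of the members with time in the control cells is therefore given as a description, with no test, and the tests below use the labelled knockout time course, the genotype comparisons and, for the 8 members other than Hhip, the difference between the genotypes' changes.

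C2C12 is a line of mouse myoblasts, muscle precursor cells that fuse into myotubes once serum is lowered. The 23 libraries came from control cells (WT) or from cells labelled Runx1KO (labelled KO here), kept in growth medium (day 0; 20% FBS, fetal bovine serum) or moved to differentiation medium (2% horse serum) for 1, 3 or 6 days. The last harvest is day 6 in the sample titles, which are used here, and day 5 in the series' design text. WT in growth medium had 2 libraries and each of the other 7 groups 3. The labels do not say how the knockout was made, whether the labelled KO cells are 1 clone, or whether replicates were separate cultures, so the p-values measure the spread between these libraries, which may be technical.

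Libraries were of near-equal depth, between 22197606 and 23684077 estimated counts in total. Runx1, the targeted gene, was higher in the labelled KO at all 4 time points (log2 fold changes of 0.35 to 1.02, all past the threshold used below), at 119.8 ± 2.15 against 84 ± 0.0493 CPM in growth medium (mean ± SD; n = 3 and 2), where CPM is the count scaled to the library size after TMM scaling. On day 6 it stood at 311 ± 11.8 against 153 ± 10.4 CPM (n = 3 each), so a loss of Runx1 was not seen at the level of RNA. These data hold no protein values, so whether the protein was lost is not known. Gene-level counts do not show which exons were read. Library 2 of labelled KO day 1 stood apart from its replicates, with a chi-square per degree of freedom of 61.1 and 61.3 against them, where every other pair of replicates gave 27.4 or less. The myotube markers (10 genes such as Myog, Acta1 and Ckm) summed to 1.76 to 1.94 CPM in WT growth medium and to 1722 to 2029 CPM on WT day 6. The labelled KO day 6 libraries reached 9515 to 11935 CPM, with 10 of the 10 genes higher than in WT, and 6 of 6 proliferation markers were also higher there, with sums of 563 to 607 against 364 to 445 CPM. In growth medium 0 of the 10 myotube markers passed. On day 1 their sums were 118 to 168 against 35 to 69 CPM in WT (7 higher), and on day 3 3540.1 to 6442 against 2024 to 2234 CPM (9 higher). The 6 proliferation markers were all higher on days 1 and 3 too, with 1 higher and 1 lower in growth medium. Of the 5 fibroblast markers, Thy1 had 0 counts in every library, and the list's sum was mostly Col1a1, a collagen gene, at 383 to 423 CPM in WT growth medium and 15.7 to 19.6 CPM in the labelled KO. The 6 myoblast markers summed to 831 to 843 CPM in WT and 895 to 1021 CPM in labelled KO growth medium, 392 to 442 and 244 to 375 CPM on day 1, 333 to 363 and 447 to 465 CPM on day 3, and 271 to 297 and 319.6 to 328 CPM on day 6. Of the 6, 1, 0, 3 and 2 were higher and 1, 2, 0 and 3 lower on days 0, 1, 3 and 6. The 4 endothelial markers summed to at most 1.25 CPM and the 4 macrophage markers to at most 12.2 CPM in any library. On day 6 the macrophage markers summed to 10.1 to 12.2 CPM in the labelled KO and 4.24 to 7.78 CPM in WT. Of the 2 tested, 1 was higher and 1 lower on day 6, and 1 was lower on days 1 and 3.

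Hedgehog ligands such as Sonic hedgehog bind the receptor Ptch1, which otherwise holds the transmembrane protein Smo inactive. Released Smo acts through the primary cilium on the Gli transcription factors, of which Gli1 is an activator and a target of the pathway, Gli2 is mainly an activator and Gli3 mainly a repressor. Boc, Cdon and Gas1 are co-receptors that help ligand reach Ptch1, while Hhip binds ligand at the surface and dampens the signal; Ptch1, Hhip and Gli1 are themselves classic targets. In muscle, Cdon and Boc also sit in complexes with cadherins and promote myogenic differentiation, and Gas1 was first described as a gene of growth-arrested fibroblasts.

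Sequence just upstream of the annotated start is shown for the member with the largest decrease by day 6 (Hhip), the member with the largest increase in the labelled KO (Gas1) and Gli3, whose window held the RUNX letters. The entries are from RefSeq, build GRCm38.p6, and hold the 250 bases before the start. For printing, bases inside the annotated extent of the gene were left out, which shortened Hhip to 198 bases. Each runs 5′ to 3′ on the gene's strand, and capitals mark a RUNX match.
Hhip, chr8:80058061-80058258, minus strand: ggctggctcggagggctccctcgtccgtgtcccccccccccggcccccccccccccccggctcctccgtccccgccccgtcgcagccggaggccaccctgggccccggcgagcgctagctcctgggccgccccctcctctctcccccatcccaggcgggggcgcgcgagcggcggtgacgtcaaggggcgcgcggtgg
Gas1, chr13:60177536-60177785, minus strand: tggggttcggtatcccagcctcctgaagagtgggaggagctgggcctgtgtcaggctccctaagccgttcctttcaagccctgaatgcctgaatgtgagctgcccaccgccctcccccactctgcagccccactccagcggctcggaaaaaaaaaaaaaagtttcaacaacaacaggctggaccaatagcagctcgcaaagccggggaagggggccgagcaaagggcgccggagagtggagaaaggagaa
Gli3, chr13:15463473-15463722, plus strand: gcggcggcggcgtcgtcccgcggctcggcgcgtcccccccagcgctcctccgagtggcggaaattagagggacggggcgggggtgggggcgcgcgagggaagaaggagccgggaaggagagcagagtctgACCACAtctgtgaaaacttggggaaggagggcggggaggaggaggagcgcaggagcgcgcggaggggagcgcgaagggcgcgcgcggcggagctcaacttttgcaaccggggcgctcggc
GC made up 76.0% of the 250 bases before the start of Hhip, 72.8% of those of Gli3 and 58.8% of those of Gas1. Both strands were searched for the core RUNX letters TGTGGT, the GLI letters GACCACCCA, the ETS letters ACCGGAAGT and the E-box letters CAGCTG and CANNTG. Of 32851 RefSeq promoter windows of this length, 14.0% held the RUNX letters, 0.225% the GLI letters, 0.804% the ETS letters, 13.0% CAGCTG and 66.2% CANNTG. The whole 250 bases were searched for each member. For Gli2, Ptch1 and Cdon all of them lie inside the annotated extent of the gene, before the start of the transcript in the table, so nothing upstream of these 3 genes was searched. Among the 7 windows, that of Gli3 alone had a match: the RUNX letters began at position -120 from the start (ACCACA, the reverse complement), and a CANNTG overlapping them began at -116. These are matches of letters in one window, not sites.

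By the same annotation all 9 are protein-coding genes: Ptch1 at chr13:63508328-63573460, Boc at chr16:44485045-44558870, Cdon at chr9:35421528-35507652, Gas1 at chr13:60174405-60177535 and Hhip at chr8:79965850-80058060. Smo lies at chr6:29735497-29761366, Gli1 at chr10:127329882-127341579, Gli2 at chr1:118834061-119054405 and Gli3 at chr13:15463723-15730026.

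Levels of different genes were compared in TPM, which is scaled to transcript length. In WT growth medium, Gas1 stood at 103 ± 15.7 TPM and Smo at 95.6 ± 3.22 TPM (mean ± SD, n = 2), a difference smaller than the spread of Gas1. Cdon followed at 52.1 ± 3.18 TPM, then Ptch1 at 13.8 ± 1.28 and Gli3 at 11.4 ± 1.44 TPM. Boc (4.12 ± 0.0636 TPM), Gli1 (3.57 ± 0.156 TPM) and Hhip (3.5 ± 0.332 TPM) were close together, with the last 2 within their spread, and Gli2 was lowest at 2.06 ± 0.148 TPM. By WT day 6, Gas1 was the highest member at 247 ± 32.4 TPM (n = 3) and Hhip the lowest at 0.15 ± 0.115 TPM. Labelled KO day 6 cells had the same extremes, Gas1 at 401 ± 50.9 TPM and Hhip at 0.0533 ± 0.0416 TPM. The co-receptors thus differed widely, with Boc at 2.15 ± 0.0814 TPM against Cdon at 55.5 ± 1.57 TPM in labelled KO growth medium (n = 3).

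**Figure D1:**
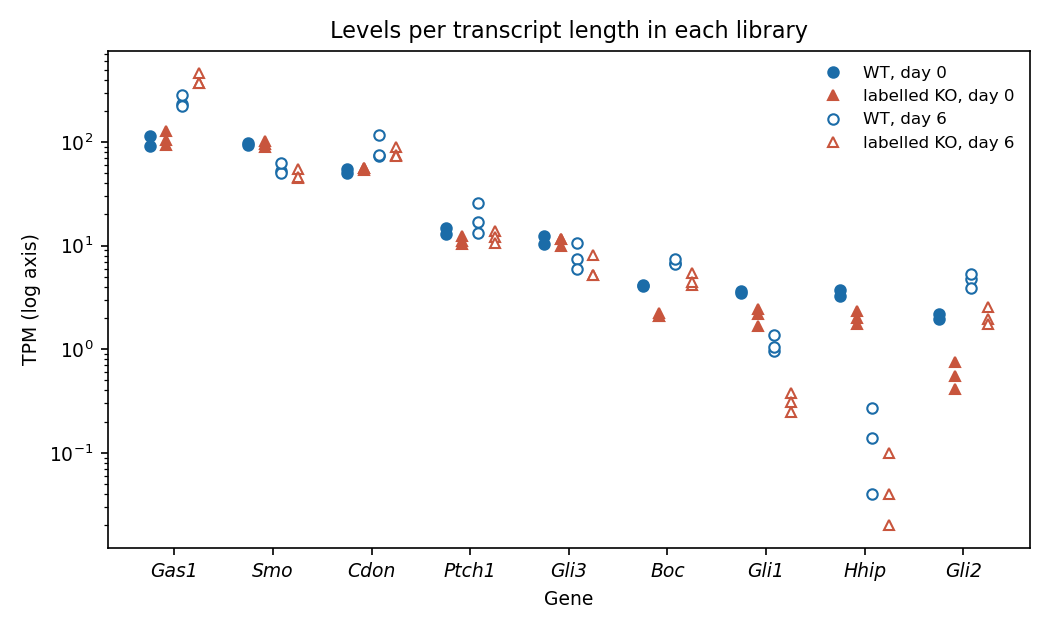
TPM of each gene (log axis) in each library of growth medium (day 0, filled) and day 6 (open), with WT as circles and labelled KO as triangles. Genes run from the highest to the lowest WT mean in growth medium, from Gas1 at 103 TPM to Gli2 at 2.06 TPM.

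Between the genotypes, the labelled KO had less Gli2 and less Boc at all 4 time points, less Gli1 and Ptch1 from day 3 on, and more Gas1 on days 3 and 6. Gli3 did not pass the test at any time point, and Cdon and Smo passed at 1 time point each. In growth medium 3 of the 9 genes passed the threshold (edgeR's quasi-likelihood test, Benjamini-Hochberg adjusted p under 0.05 over all tested genes), all 3 lower, against 17.5% of all genes (7.36% higher and 10.1% lower). On day 1 there were 3, with 1 higher and 2 lower, against 42.2% of all genes (22.9% higher, 19.2% lower), and 5 without library 2 of labelled KO day 1. Day 3 gave 6 members, 2 of them higher and 4 lower, against 43.2% of all genes (24.0% higher, 19.2% lower). Day 6 also gave 6, 1 of them higher and 5 lower, against 42.9% (22.0% higher, 20.8% lower). Hhip was 1 of those passing in growth medium and on day 6, where the test used WT libraries on which it was chosen; of the 8 others, 2 passed in growth medium and 5 on day 6. With so few genes, nothing is read from the distance to the share of all genes. The balance of calls over all genes moved with the scaling: of the calls in growth medium 42.1% were higher with TMM scaling and 29.5% with library size only. By limma on log2(TPM + 1) the share of calls that were higher was 43.3% on day 1 (54.4% with TMM), 34.3% on day 3 (55.5%) and 34.9% on day 6 (51.4%). With limma on log2(TPM + 0.1) the median log2 fold change of all genes was -0.11 on day 3 and -0.12 on day 6, against 0.04 and 0 with TMM. In these bulk samples, fewer cells that make a transcript and less of it per cell cannot be told apart.

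**Figure D2:**
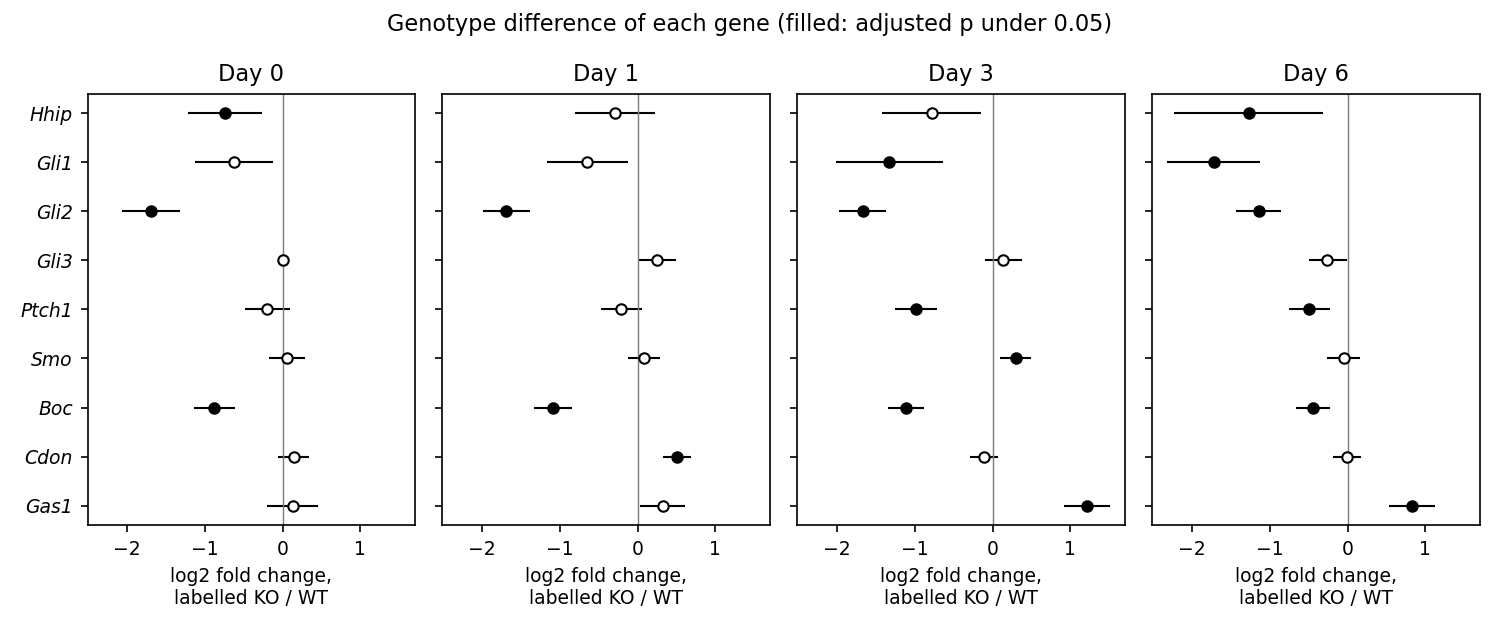
Log2 fold change of labelled KO over WT (horizontal axis) for each gene at each time point, from the edgeR fit, with approximate 95% intervals from the standard error. Filled points passed the adjusted threshold; Gli3 on day 0 rounded to 0 and carries no interval. Gli2 and Boc lie left of 0 in all 4 panels.

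Ptch1 encodes the receptor that both binds ligand and restrains Smo. In WT it stood at 35.1 and 30.7 CPM in growth medium, 33.7, 35.7 and 28.9 on day 1, 42.8, 41.9 and 48.4 on day 3, and 37.5, 28.4 and 46.3 on day 6. The labelled KO libraries gave 30.4, 27.2 and 28.5 CPM in growth medium, 26.5, 27.4 and 31.1 on day 1, 20.4, 21.5 and 25.2 on day 3, and 29, 27.9 and 23 on day 6. The genotypes were furthest apart on day 3, where all WT libraries were above all labelled KO libraries, and they overlapped on days 1 and 6. The log2 fold change of labelled KO over WT was -0.99 ± 0.135 on day 3 (SE; adjusted p = 2.64e-06). Day 6 had -0.49 ± 0.133 (adjusted p = 0.00448). In growth medium and on day 1 the differences of -0.20 ± 0.149 (adjusted p = 0.434) and -0.21 ± 0.134 (adjusted p = 0.218) did not pass. Libraries of the genotypes did not overlap for 51.6%, 47.1%, 60.4% and 51.7% of all genes on days 0, 1, 3 and 6.

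The course of Ptch1 differed between the genotypes on day 3. WT stood 0.43 ± 0.149 above its growth medium on the log2 scale, while the labelled KO fell by 0.36 on the same scale (SE 0.136, adjusted p = 0.0284). The interaction term, the labelled KO change minus the WT change, was -0.79 ± 0.202 (adjusted p = 0.0119). Without library 2 of WT growth medium it was -0.69 with an adjusted p of 0.0977. The labelled KO decrease itself missed the threshold without any of 4 libraries (1 and 3 of growth medium, 1 and 2 of day 3), with values from -0.36 to -0.30 and adjusted p from 0.0556 to 0.111, and it missed it with library size scaling (-0.29) and with limma on TPM (-0.20 to -0.18). On day 6 the labelled KO mean was 26.6 ± 3.19 CPM, beside 28.7 ± 1.6 in growth medium (n = 3 each), and the interaction of -0.29 ± 0.201 did not pass (adjusted p = 0.401).

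Boc and Cdon are related cell-surface co-receptors of the immunoglobulin superfamily. WT libraries had 11 and 11.9 CPM of Boc in growth medium, 10.4, 12 and 9.23 on day 1, 13.7, 14.7 and 12.3 on day 3, and 16.9, 17.7 and 16.6 on day 6. In the labelled KO, Boc was at 5.99, 6.58 and 6.02 CPM in growth medium, 4.24, 5.02 and 5.55 on day 1, 6.11, 5.99 and 6.82 on day 3, and 13.9, 11.4 and 12.5 on day 6. At each time point every WT library lay above every labelled KO library. The log2 fold change was -0.88 ± 0.132 (adjusted p = 2.99e-05) in growth medium, -1.09 ± 0.122 (adjusted p = 2.41e-07) on day 1 and -1.11 ± 0.118 (adjusted p = 7.78e-08) on day 3. It was smaller on day 6, at -0.44 ± 0.111 (adjusted p = 0.00258). All 4 differences held without each library in turn and with the other scalings and tools run.

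Within the labelled KO course, Boc rose late, by 1.00 ± 0.119 from day 3 to day 6 (log2 fold change, adjusted p = 4.2e-07) and by 1.02 ± 0.119 from growth medium to day 6 (adjusted p = 6.3e-08). WT was 0.58 ± 0.127 higher on day 6 than in growth medium. The difference between these changes was 0.44 ± 0.173 and did not pass (adjusted p = 0.0997). Smaller steps of Boc in the labelled KO, -0.33 ± 0.128 on day 1 against growth medium (adjusted p = 0.0359) and 0.35 ± 0.127 on day 3 against day 1 (adjusted p = 0.0438), were near the threshold. The day 1 step of Boc was lost without any of 10 libraries (from -0.35 to -0.23, adjusted p from 0.0516 to 0.172) and in 5 other settings: only the groups compared (-0.32), library size only (-0.24), no filter on low counts (-0.36), and limma on log2(TPM + 1) (-0.12) and on log2(TPM + 0.1) (-0.17). The step from day 1 to day 3 was lost without any of 16 libraries (from 0.25 to 0.39, adjusted p from 0.0503 to 0.17) and in all 9 other settings run, the replicate block among them (0.35, adjusted p = 0.0519), with values from 0.21 to 0.35.

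Cdon libraries of WT stood at 244 and 237 CPM in growth medium, 326, 307 and 316 on day 1, 382, 397 and 372 on day 3, and 302, 329 and 433 on day 6. The labelled KO had 253, 273 and 269.6 CPM in growth medium, 442, 474 and 438 on day 1, 360.3, 372 and 336 on day 3, and 378, 344 and 336 on day 6. By group means the labelled KO was highest on day 1 and WT on day 3. All labelled KO libraries were above all WT libraries in growth medium and on day 1, and narrowly below them on day 3. On day 1 Cdon was higher in the labelled KO by a log2 fold change of 0.51 ± 0.0923 (adjusted p = 0.000106), while the means at the other time points were 265 ± 10.8 against 241 ± 5.18 CPM in growth medium, 356 ± 18.2 against 384 ± 12.8 on day 3 and 353 ± 22.5 against 355 ± 69.6 on day 6. Within the labelled KO, Cdon rose by 0.77 ± 0.0927 on day 1 (adjusted p = 2.9e-07), fell by 0.34 from day 1 to day 3 (SE 0.0921, adjusted p = 0.0076), and stayed 0.41 ± 0.0924 above growth medium on day 6 (adjusted p = 0.000395). The WT values were 0.39 ± 0.104, 0.67 ± 0.105 and 0.56 ± 0.105 above growth medium on days 1, 3 and 6. The difference between the genotypes' changes on day 1, 0.37 ± 0.138, did not pass (adjusted p = 0.145), nor did that on day 3, -0.25 ± 0.139 (adjusted p = 0.301). The day 3 term passed with only the groups compared (adjusted p = 0.0178) and without library 3 of WT day 6 (-0.31, adjusted p = 0.0497). The day 3 genotype difference passed with only the groups compared (adjusted p = 0.0433).

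Gas1, a lipid-anchored co-receptor, was the member with the largest rise against growth medium in the labelled KO. WT had 215 and 183 CPM in growth medium, 691, 579.8 and 688 on day 1, 456, 457 and 440 on day 3, and 404, 411 and 438 on day 6. Labelled KO libraries gave 253, 212 and 189 CPM in growth medium, 985, 528 and 933 on day 1, 979, 1073 and 1088 on day 3, and 812, 701 and 720.4 on day 6. WT peaked on day 1, whereas the labelled KO stayed high, and every labelled KO library was above every WT library on days 3 and 6. Gas1 was higher in the labelled KO by a log2 fold change of 1.21 ± 0.15 on day 3 (2.32-fold, adjusted p = 6.59e-07) and of 0.83 ± 0.149 on day 6 (adjusted p = 8.14e-05). On day 1 the difference was 0.32 ± 0.148 (adjusted p = 0.0866). Its libraries overlapped through library 2 of labelled KO day 1, at 528 CPM, the library that stood apart from its replicates across all genes. Without that library the day 1 value was 0.53, with an adjusted p of 0.000112.

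In the labelled KO, Gas1 rose by 1.90 ± 0.154 on day 1 (log2 fold change against growth medium, adjusted p = 5.49e-10), 2.26 ± 0.155 on day 3 (adjusted p = 1.66e-11) and 1.77 ± 0.153 on day 6 (adjusted p = 4.31e-10). The WT values were 1.71 ± 0.177, 1.18 ± 0.173 and 1.07 ± 0.172. The change was larger in the labelled KO on day 3 by 1.08 ± 0.222 (interaction, adjusted p = 0.002) and on day 6 by 0.70 ± 0.223 (adjusted p = 0.0387). The day 6 interaction was lost without any of 11 libraries, from 0.53 to 0.81 with adjusted p from 0.0514 to 0.225, and with limma on TPM (0.63 to 0.64, adjusted p from 0.0807 to 0.0877). From day 3 to day 6, Gas1 fell by 0.49 in the labelled KO (SE 0.148, adjusted p = 0.0101).

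**Figure D3:**
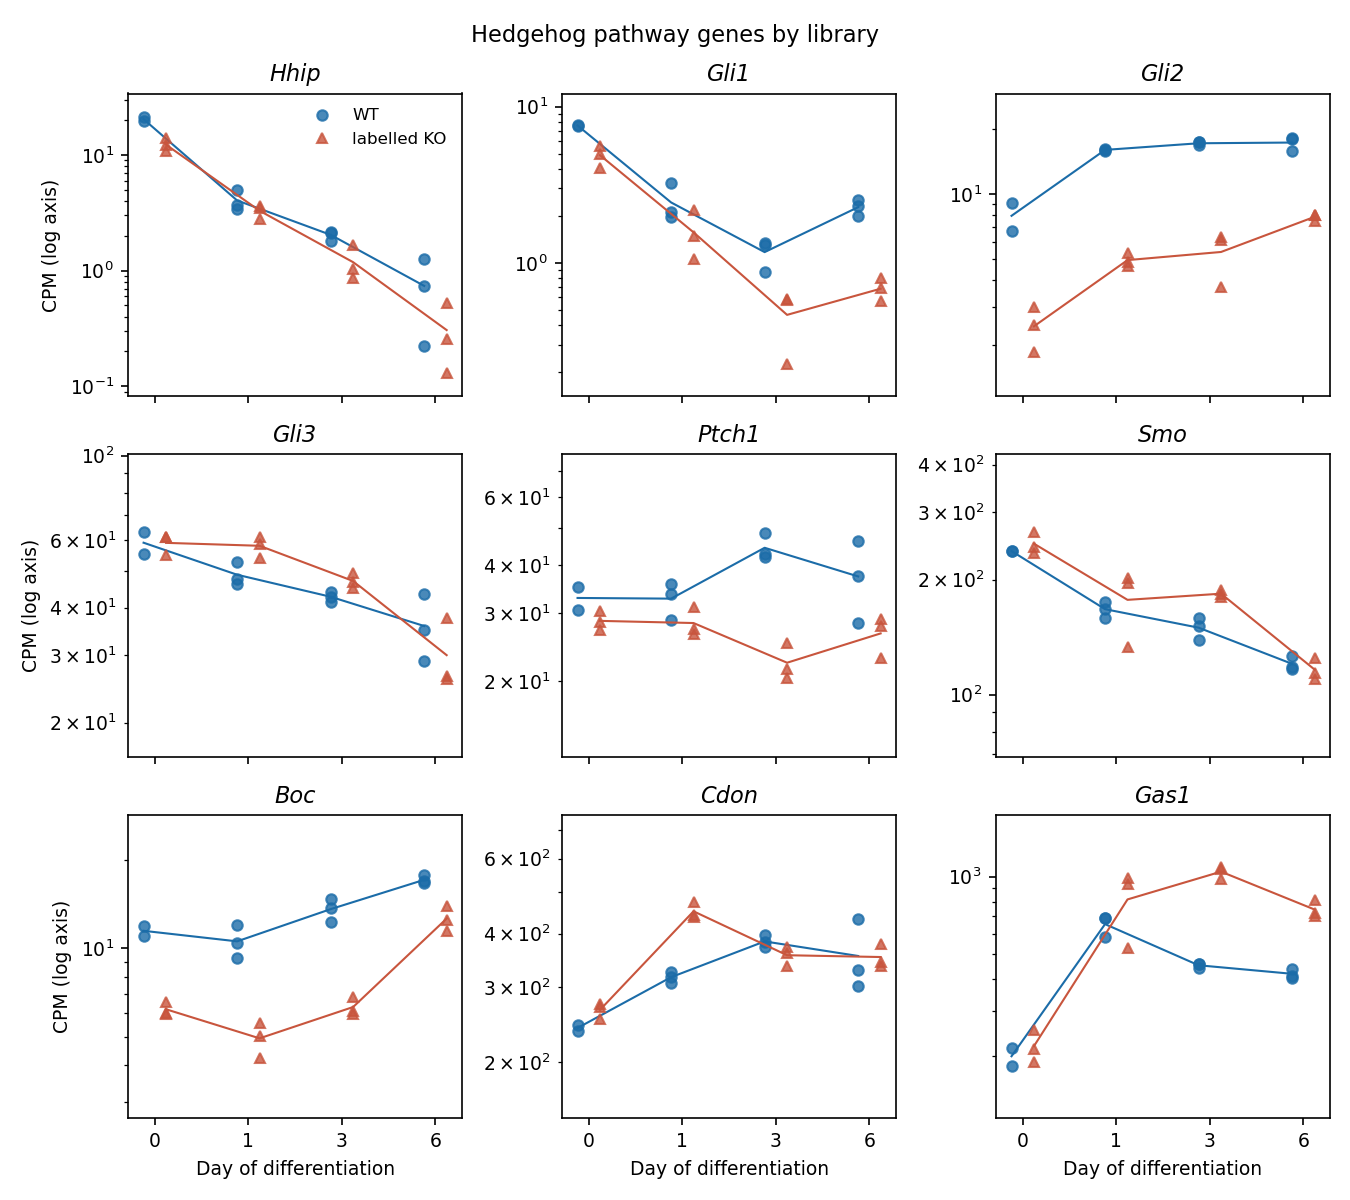
CPM of each gene (log axis, scaled per panel) in each library against the day of differentiation, with WT as circles, labelled KO as triangles, and lines through the group means; the days are evenly spaced, not to scale. Hhip goes down through all 4 time points in both genotypes, the Gli2 and Boc triangles lie below the circles throughout, and the Gas1 triangles lie above the circles on days 3 and 6.

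Hhip, the ligand-binding antagonist, went down in every step of both courses. WT libraries held 21.3 and 19.6 CPM in growth medium, 3.7, 3.44 and 5 on day 1, 2.13, 2.17 and 1.82 on day 3, and 0.731, 0.222 and 1.26 on day 6. Labelled KO libraries held 14, 10.8 and 12.1 CPM in growth medium, 3.47, 3.64 and 2.78 on day 1, 0.86, 1.03 and 1.66 on day 3, and 0.529, 0.258 and 0.131 on day 6. No library of a later day reached any library of the time point before it in either genotype. Over the same 3 steps, libraries did not overlap for 74.5%, 45.0% and 29.4% of all genes in WT and for 53.6%, 34.5% and 55.0% in the labelled KO. Day 6 rested on few reads, 5 to 30 counts per library in WT and 3 to 12 in the labelled KO, where 3 counts were taken as the floor. WT values against growth medium, the ones the choice of Hhip used, were -2.34 ± 0.259, -3.32 ± 0.277 and -4.77 ± 0.314 on days 1, 3 and 6 (log2 fold change ± SE, no test). The labelled KO libraries, which that choice did not use, gave -1.89 ± 0.249 on day 1 (adjusted p = 9.83e-07), -3.37 ± 0.285 on day 3 (adjusted p = 6.28e-10) and -5.31 ± 0.351 on day 6 (adjusted p = 3.8e-12). The last step, day 6 against day 3, was -1.94 ± 0.454 (adjusted p = 0.0014) and, among the alternatives run, missed the threshold only with limma on log2(TPM + 1), at -0.19 (adjusted p = 0.106).

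Against WT, Hhip was lower in the labelled KO in growth medium by -0.74 ± 0.245 (adjusted p = 0.0399) and on day 6 by -1.27 ± 0.49 (adjusted p = 0.0397). Both calls were close to the threshold and used the WT libraries on which Hhip was chosen. The growth medium call was lost without any of 10 libraries (WT day 0 libraries 1 and 2, day 1 libraries 1 and 2, day 3 libraries 1 and 2, day 6 library 1, and all 3 of labelled KO day 0), from -0.81 to -0.65 with adjusted p from 0.0501 to 0.275. The day 6 call was lost without WT library 1 or 3 or labelled KO library 2 or 3, from -1.31 to -0.68 with adjusted p from 0.0646 to 0.332, and the libraries overlapped. It was also lost with only the groups compared (-1.28, adjusted p = 0.13) and with limma on log2(TPM + 1) (-0.12, adjusted p = 0.293) and log2(TPM + 0.1) (-0.63, adjusted p = 0.0825), where fold changes of low genes are understated. The growth medium call was also lost with limma on log2(TPM + 0.1) (-0.78, adjusted p = 0.11). On day 3 the value of -0.78 ± 0.325 did not pass (adjusted p = 0.0555), but it passed in 15 of 32 alternatives. Day 1 gave -0.29 ± 0.263 (adjusted p = 0.394).

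Smo, the membrane protein that carries the signal inward, was abundant throughout. WT stood at 237 and 238 CPM in growth medium, 168, 159 and 175 on day 1, 159, 151 and 139 on day 3, and 117, 118 and 126 on day 6. The labelled KO gave 244, 235 and 266 CPM in growth medium, 196, 133 and 202 on day 1, 183, 180.1 and 188 on day 3, and 125, 109.8 and 114 on day 6. Both genotypes ended below their starting level, and their libraries overlapped at every time point but day 3. Smo in the labelled KO fell by 0.49 from growth medium to day 1 (log2 scale, SE 0.105, adjusted p = 0.000412). By day 3 the change was -0.43 ± 0.105 (adjusted p = 0.00114) and by day 6 -1.09 ± 0.107 (adjusted p = 3.39e-09). WT stood at -0.51 ± 0.116, -0.67 ± 0.116 and -0.98 ± 0.116. The day 3 genotype difference of 0.30 ± 0.105 (adjusted p = 0.0264) was lost without any of 9 libraries, from 0.25 to 0.30 with adjusted p from 0.0501 to 0.113, with library size scaling (0.24) and with limma on TPM (0.15). On day 1 the means were 177 ± 38.3 against 167 ± 7.99 CPM, and without library 2 of labelled KO day 1 the difference was 0.23 (adjusted p = 0.0117).

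The 3 Gli factors followed 3 patterns. Gli1, the activator often used as a readout of the pathway, stood in WT at 7.57 and 7.55 CPM in growth medium, 2.12, 3.22 and 1.96 on day 1, 0.871, 1.3 and 1.34 on day 3, and 1.98, 2.31 and 2.52 on day 6. In the labelled KO it stood at 5.58, 4.06 and 5 CPM in growth medium, 2.17, 1.05 and 1.48 on day 1, 0.588, 0.581 and 0.224 on day 3, and 0.794, 0.688 and 0.566 on day 6. All WT libraries exceeded all labelled KO libraries on days 0, 3 and 6, and by group means both genotypes were lowest on day 3. The difference passed on day 3, at -1.33 ± 0.35 (2.51-fold lower, adjusted p = 0.00372), and on day 6, at -1.72 ± 0.303 (adjusted p = 6.43e-05). By limma on log2(TPM + 1), a scale that understates the change of genes this low, the Gli1 differences were -0.44 (adjusted p = 0.00459) and -0.70 (adjusted p = 5.6e-05). In growth medium it was -0.63 ± 0.253 (adjusted p = 0.0956) and on day 1 -0.65 ± 0.268 (adjusted p = 0.0573). The first of these passed in 2 of 32 alternatives and the second in 10, DESeq2 among them. Gli1 counts were low on day 3, at 20 to 31 per library in WT and 5 to 13 in the labelled KO.

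Against growth medium, the log2 fold change of Gli1 in the labelled KO was -1.65 ± 0.258 on day 1 (adjusted p = 1.13e-05), -3.38 ± 0.308 on day 3 (adjusted p = 2.23e-09) and -2.83 ± 0.288 by day 6 (adjusted p = 7.14e-09). WT values were -1.63 ± 0.262, -2.68 ± 0.28 and -1.73 ± 0.263. On WT day 6, Gli1 was 0.95 ± 0.28 above WT day 3, with no overlap, whereas the labelled KO step of 0.55 ± 0.38 did not pass (adjusted p = 0.264). The interaction was -0.70 ± 0.435 on day 3 (adjusted p = 0.367) and -1.09 ± 0.399 on day 6 (adjusted p = 0.0751). The day 6 term passed with only the groups compared (-1.11, adjusted p = 0.0194), with DESeq2 (-1.11, adjusted p = 0.0488) and without library 2 of labelled KO day 1 (-1.14, adjusted p = 0.0301), and was -0.13 with limma on log2(TPM + 1).

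Gli2 went the other way with time and was the member with the largest genotype difference in 3 of the 4 comparisons. WT had 9.06 and 6.76 CPM in growth medium, 16.2, 15.9 and 15.8 on day 1, 17.3, 16.8 and 17.3 on day 3, and 17.9, 15.7 and 18.2 on day 6. The labelled KO had 2.99, 2.47 and 1.85 CPM in growth medium, 5.32, 4.65 and 4.83 on day 1, 6.34, 6.08 and 3.72 on day 3, and 7.98, 8 and 7.49 on day 6. The labelled KO libraries were below the WT libraries at every time point. On day 6 they were at the level of WT growth medium. The log2 fold change was -1.69 ± 0.19 in growth medium (3.24-fold lower, adjusted p = 4.86e-07), -1.69 ± 0.153 on day 1 (adjusted p = 8.22e-09), -1.67 ± 0.152 on day 3 (adjusted p = 6.08e-09) and -1.14 ± 0.146 on day 6 (adjusted p = 9.4e-07). Leaving out any library, or using another scaling or tool, kept all 4 calls. On the log2(TPM + 1) scale the growth medium difference of Gli2 was -0.97.

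With time, Gli2 in the labelled KO rose by 1.01 ± 0.182 on day 1 (log2 fold change, adjusted p = 6.02e-05), 1.14 ± 0.181 on day 3 (adjusted p = 1.03e-05) and 1.68 ± 0.175 on day 6 (adjusted p = 1.02e-08), beside WT values of 1.01 ± 0.167, 1.11 ± 0.167 and 1.12 ± 0.167. The step from day 3 to day 6 in the labelled KO, 0.54 ± 0.158 (adjusted p = 0.00799), was 0.33 with an adjusted p of 0.075 without library 3 of labelled KO day 3. The interaction of 0.55 ± 0.241 on day 6 did not pass (adjusted p = 0.148).

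Gli3, the main repressor of the family, was the most abundant Gli factor per transcript length in all 8 groups. WT stood at 63 and 55.3 CPM in growth medium, 52.7, 46.1 and 47.5 on day 1, 41.5, 42.6 and 44 on day 3, and 35, 29 and 43.4 on day 6. The labelled KO stood at 61.2, 54.8 and 61.3 CPM in growth medium, 58.8, 61.4 and 54 on day 1, 46.8, 49.2 and 44.9 on day 3, and 37.6, 26.5 and 26 on day 6. Both genotypes ended lower than they began. The labelled KO was above WT on days 1 and 3 without overlap, yet the day 1 difference of 0.25 ± 0.123 did not pass (adjusted p = 0.104). Day 6 gave -0.26 ± 0.126 (adjusted p = 0.109), and without library 2 of WT day 6 or library 1 of labelled KO day 6 it passed, at -0.48 to -0.39 (adjusted p from 0.0033 to 0.0177). In the labelled KO, Gli3 fell by 0.98 on day 6 against growth medium (log2 scale, SE 0.125, adjusted p = 2.93e-07), with WT at -0.72 ± 0.137. The day 3 value of -0.33 ± 0.123 (adjusted p = 0.0252) was lost without any of 4 libraries, at adjusted p from 0.0566 to 0.0795, with library size scaling (-0.26) and with limma on TPM (-0.28 to -0.25).

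Counted over the labelled KO course, 7 of the 9 genes passed on day 1 against growth medium, with 3 up and 4 down, against 52.3% of all genes (27.2% up, 25.2% down). On day 3 there were 8, 3 up and 5 down, against 57.6% (30.4% up, 27.2% down), and by day 6 again 8, 4 up and 4 down, against 70.0% (36.6% up, 33.5% down). From day 1 to day 3, 4 passed, 1 up and 3 down, against 26.7% (15.5% up, 11.2% down). From day 3 to day 6, 6 passed, 2 up and 4 down, against 41.3% (20.2% up, 21.2% down). With 9 genes, nothing is read from the distance to these shares. Without library 2 of labelled KO day 1, 6 passed on day 1 against growth medium and 3 from day 1 to day 3. Hhip, Gli1, Smo and Gli3 were the ones that ended lower and Gli2, Boc, Cdon and Gas1 the ones that ended higher, with Ptch1 not past the threshold on day 6. The WT means lay on the same side of growth medium for these 8 genes on day 6. Of the 8 members tested for a difference between the courses, 0 passed on day 1, against 3.95% of all genes (2.64% higher, 1.31% lower). Ptch1 and Gas1 passed on day 3, so 2 against 10.7% (6.65% higher, 4.06% lower), and Gas1 on day 6, so 1 against 13.0% (7.54% higher, 5.42% lower). On day 1, 1 of the 8, Cdon, had an unadjusted p under 0.05 by edgeR and by DESeq2, and limma on TPM gave 0. On day 3 there were 2 by edgeR (Ptch1 and Gas1), 3 by DESeq2 and 2 by limma. On day 6 there were 4 by edgeR and by DESeq2 (Gli1, Gli2, Boc and Gas1), but 1 by limma on log2(TPM + 1) and 2 on log2(TPM + 0.1). The share of all genes under this unadjusted threshold was not counted, so nothing is read from these numbers.

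**Figure D4:**
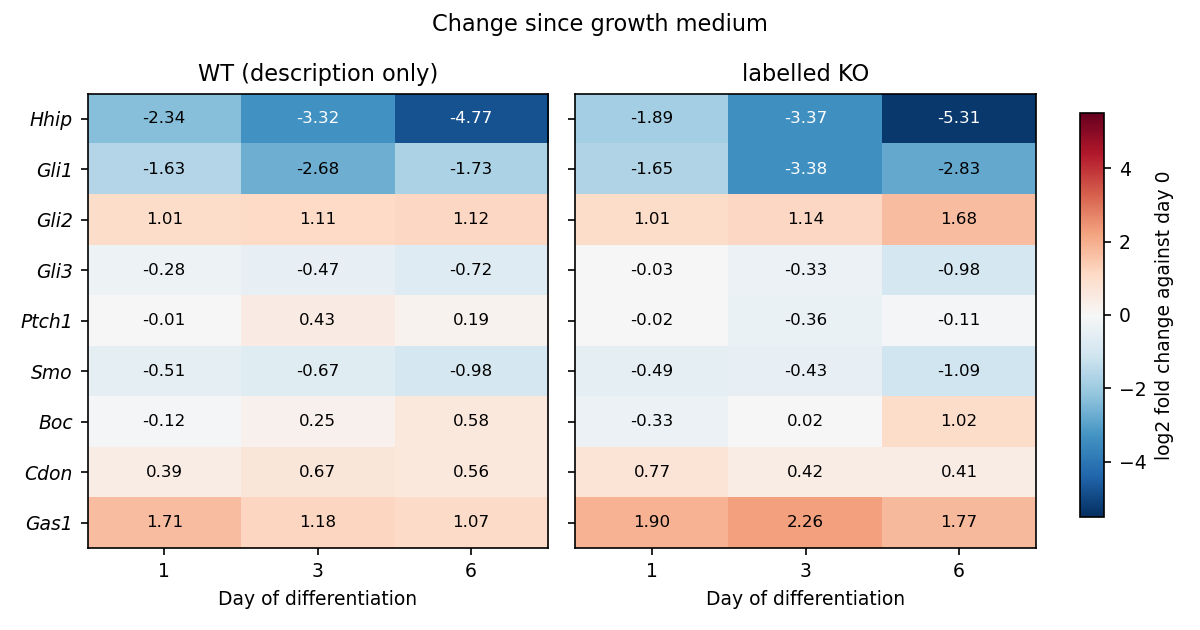
Log2 fold change of each gene on days 1, 3 and 6 against growth medium, as color and printed value, for WT (left, no test) and labelled KO (right). Hhip reaches -4.77 in WT and -5.31 in the labelled KO, and Gas1 on day 3 is 1.18 in WT and 2.26 in the labelled KO.

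The rest of the pathway was read from 6 gene lists. Of the ligands and the genes that process or release them, Shh had 0 counts in all 23 libraries, Ihh had 0 to 7 and Dhh 4 to 20. The allowance of 3 counts for a count of 0 corresponds to at most 0.14 CPM of Shh per library, which covers counting error only. Hhat, the enzyme that attaches palmitate to Hedgehog ligands, was lower in the labelled KO at all 4 time points, from -1.02 ± 0.197 (adjusted p = 0.000596) in growth medium to -0.66 ± 0.169 (adjusted p = 0.00298) on day 6. Disp1, which releases lipidated ligand from cells, was lower on days 1, 3 and 6, at 56.3 ± 4.7 against 84.8 ± 6.3 CPM on day 6 (-0.59 ± 0.0886, adjusted p = 8.82e-06). Of the 8 listed genes, 3 were tested, with 0 higher and 1, 2, 2 and 2 lower on days 0, 1, 3 and 6, where 17.5%, 42.2%, 43.2% and 42.9% of all genes passed; these shares are the background of the lists that follow too.

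Among surface modulators, Lrp2, a large endocytic receptor, had 74 to 78 counts in WT growth medium and 10 to 23 in the labelled KO (adjusted p = 0.00115). The glypicans, heparan sulfate proteoglycans, moved in opposite directions on day 6: Gpc6 was lower, at 22.8 ± 0.984 against 40 ± 1.65 CPM (-0.81 ± 0.0872, adjusted p = 6.45e-08), and Gpc1 higher, at 2022 ± 2.31 against 1343 ± 94.3 CPM (0.59 ± 0.0836, adjusted p = 3.95e-06). Of 6 genes read 3 were tested, with 0, 0, 1 and 1 higher and 1, 1, 2 and 2 lower on days 0, 1, 3 and 6. By limma on log2(TPM + 1) the split was 0 higher and 1 lower on day 3 and 1 higher and 1 lower on day 6.

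Of the 23 genes between Smo and Gli, all tested, 1, 1, 1 and 4 were higher and 4, 7, 4 and 8 lower on days 0, 1, 3 and 6, with medians from -0.12 to -0.01. That is 21.7%, 34.8%, 21.7% and 52.2% of the list, beside 17.5%, 42.2%, 43.2% and 42.9% of all genes. Sufu, the main negative regulator that binds Gli proteins, stood at 58.2 ± 0.822 against 57.7 ± 2.44 CPM in growth medium and 42.7 ± 2.19 against 43.6 ± 2.98 on day 6. Stk36 and Ulk3, kinases linked to Gli activation, were lower in growth medium by -0.53 ± 0.147 (adjusted p = 0.0129) and -0.58 ± 0.133 (adjusted p = 0.00313), and Ulk3 on day 3 by -0.84 ± 0.114 (adjusted p = 2.32e-06). Stk36 also passed on days 1 and 3, and both kinases passed in 1 direction in at least 3 of the 4 genotype comparisons. Kif7, the ciliary kinesin of the pathway, stood at 7.82 ± 0.836 against 12.4 ± 0.865 CPM on day 6 (-0.66 ± 0.0988, adjusted p = 8.11e-06) and at 10.5 ± 0.66 against 10.9 ± 0.332 on day 3. Evc, a ciliary protein of the pathway, was lower in growth medium and on days 1 and 6 (-0.47 ± 0.0891 on day 6, adjusted p = 0.000139), and Iqce, which binds the Evc complex, was lower at all 4 time points (-0.46 ± 0.0874 on day 6, adjusted p = 0.000182). Csnk1a1, casein kinase 1 alpha, was among the 4 that were higher on day 6, at 314 ± 13.6 against 219 ± 20.1 CPM (0.52 ± 0.0936, adjusted p = 7.85e-05). By limma on TPM the split of the list was 0 higher and 6 lower on day 3 and 1 higher and 11 lower on day 6, and with library size only it was 0 higher and 7 lower in growth medium.

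Of the 19 genes of the primary cilium and its transport, all tested, 0, 1, 1 and 0 were higher and 5, 7, 6 and 12 lower on days 0, 1, 3 and 6. This was 26.3%, 42.1%, 36.8% and 63.2% of the list, beside 17.5%, 42.2%, 43.2% and 42.9% of all genes. With library size only and with DESeq2, day 1 gave 1 higher and 9 lower. On day 3 the split was 1 higher and 9 lower with RLE scaling, library size only and DESeq2, and 0 higher and 10 lower with limma on TPM. The day 6 median was -0.32, beside 0 over all genes, and it ran from -0.46 to -0.32 over the other scalings and tools run. Rab23, a small GTPase that restrains the pathway, was lower on day 6 by -0.94 ± 0.0743 (adjusted p = 3.84e-10), Ift20, a subunit of the transport complex, by -0.71 ± 0.0888 (adjusted p = 7.57e-07), and Ift88, another subunit, by -0.70 ± 0.165 (adjusted p = 0.00138). Rab34, a GTPase of cilium formation, was lower from day 1 on (-0.52 ± 0.0797 on day 6, adjusted p = 1.2e-05). Tctn1, of the transition zone, and Inpp5e, a ciliary phosphatase, were lower in growth medium and on days 1 and 6, on day 6 by -0.52 ± 0.0989 (adjusted p = 0.000169) and -0.38 ± 0.0826 (adjusted p = 0.000731). Cep290, a protein of the ciliary base, was the 1 higher on day 1 (1.01 ± 0.235, adjusted p = 0.00139), with a labelled KO SD of 7.79 around 15 CPM.

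Of 15 further target genes of the pathway, 11 were tested, with 1, 2, 1 and 1 higher and 4, 6, 7 and 7 lower on days 0, 1, 3 and 6, and medians of -0.23, -0.42, -0.44 and -0.56 beside 0, 0.03, 0.04 and 0 over all genes. Of all genes, 7.36%, 22.9%, 24.0% and 22.0% were higher and 10.1%, 19.2%, 19.2% and 20.8% lower. Foxf1, a forkhead factor of mesenchyme, had 37 to 47 counts in WT growth medium and 2 to 4 in the labelled KO, and 69 to 80 against 3 to 12 on day 6 (adjusted p = 7.09e-06 and 5.78e-07). Grem1, an antagonist of bone morphogenetic proteins, was lower by -1.42 ± 0.173 in growth medium (adjusted p = 1.69e-06) and by -1.09 ± 0.155 on day 6 (adjusted p = 4.38e-06). Ccnd2, cyclin D2, was lower from day 1 on, by -0.93 ± 0.0802 on day 3 (adjusted p = 2.58e-09). Foxl1, another forkhead factor, and Bcl2, an inhibitor of apoptosis, were lower at all 4 time points, in growth medium by -0.84 ± 0.161 (adjusted p = 0.00059) and -0.54 ± 0.188 (adjusted p = 0.0474). Snai1, a transcriptional repressor, was lower from day 1 on, by -0.82 ± 0.171 on day 3 (adjusted p = 0.000413). Foxm1, a regulator of mitotic genes, was higher on days 1, 3 and 6, on day 3 by 1.06 ± 0.113 (adjusted p = 7.82e-08), and the 6 proliferation markers were higher there too, at 1262 to 1502 against 620.2 to 790.2 CPM; their part in that result was not tested. Ccnd1, cyclin D1, was higher in growth medium (0.41 ± 0.107, adjusted p = 0.00892) and lower on day 6 (-0.61 ± 0.0967, adjusted p = 1.7e-05). By limma on TPM the list had 0 higher and 3 lower in growth medium, so the Ccnd1 call was lost there.

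Of 16 listed partners and effectors of Cdon and Boc in muscle, 15 were tested, with 2, 8, 6 and 5 higher and 1, 2, 1 and 2 lower on days 0, 1, 3 and 6 in the edgeR fit. The shares passing were 20%, 66.7%, 46.7% and 46.7%, beside 17.5%, 42.2%, 43.2% and 42.9% of all genes. On day 1 limma on TPM gave 5 higher and 2 lower, and with 15 genes nothing is read from the distance to these shares. On TPM the balance of higher and lower flipped on days 3 and 6, where limma on log2(TPM + 1) gave 3 higher and 4 lower. Cdh15, M-cadherin, a myoblast adhesion protein found with Cdon, was higher at all 4 time points, at 216 ± 16.2 against 129.8 ± 9.68 CPM in growth medium (0.74 ± 0.125, adjusted p = 0.000134) and 0.64 ± 0.109 on day 6 (adjusted p = 4.24e-05). Neo1, neogenin, a receptor that binds netrins, was higher in at least 3 of the 4 genotype comparisons, on day 1 by 0.52 ± 0.0621 (adjusted p = 6.65e-07). Ntn1, a netrin, was lower at all 4 time points, from -0.89 ± 0.103 (adjusted p = 7.34e-07) in growth medium to -0.66 ± 0.0916 (adjusted p = 2.97e-06) on day 6. Hfe2, hemojuvelin, a repulsive guidance family member of skeletal muscle, was also higher in at least 3 of the 4, on day 6 at 137 ± 14.4 against 26.8 ± 4.87 CPM (2.35 ± 0.174, adjusted p = 1.33e-10). Rgma, of the same family, was higher on days 3 and 6, on day 3 by 0.90 ± 0.136 (adjusted p = 1.13e-05), and Tcf12, an E protein that pairs with MyoD, from day 1 on, by 0.35 ± 0.0769 on day 6 (adjusted p = 0.000659). Of the 10 myotube markers, 0, 7, 9 and 10 were higher and 0 lower in the labelled KO on days 0, 1, 3 and 6. Their part in this was not tested.

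**Figure D5:**
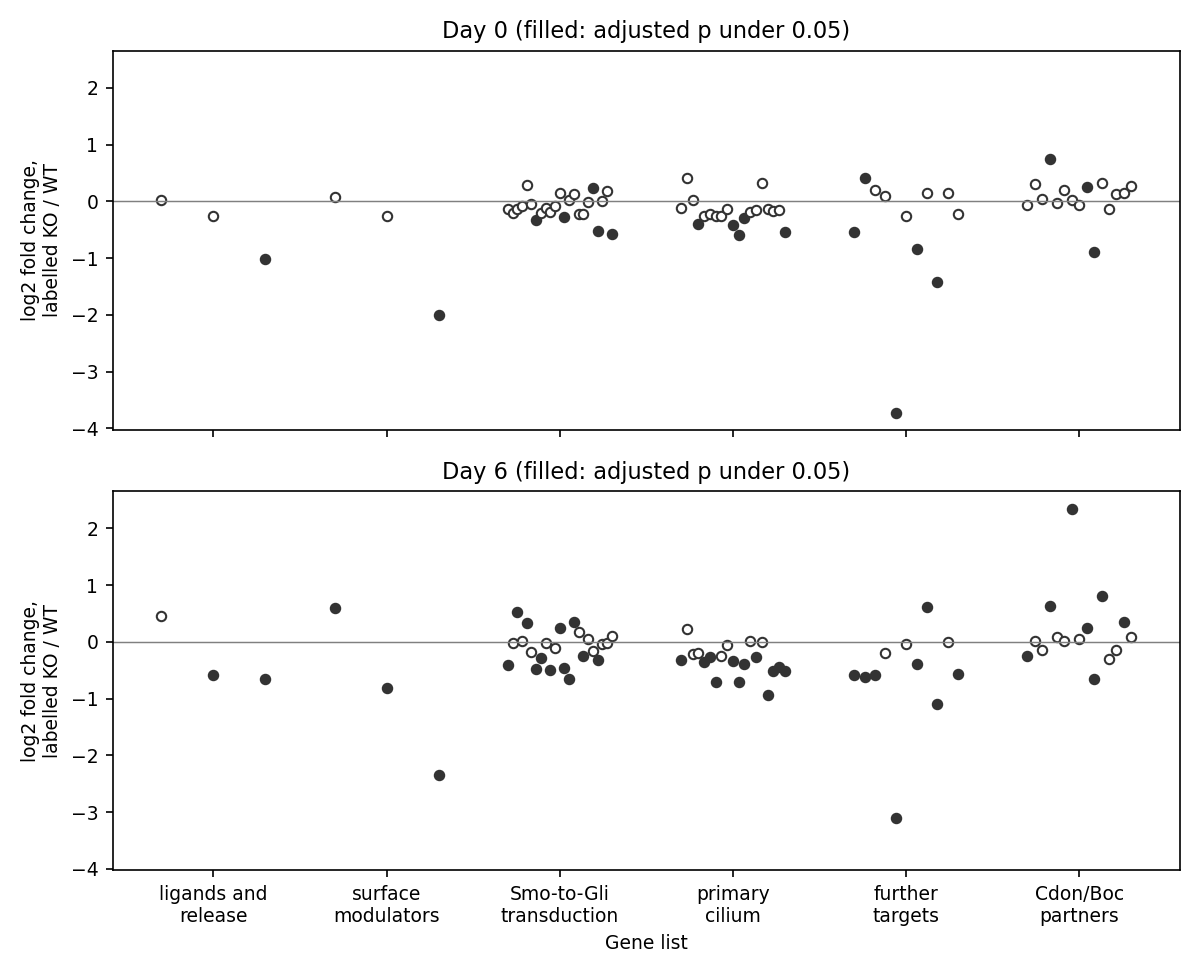
Log2 fold change of labelled KO over WT for each tested gene of the 6 lists in growth medium (top) and on day 6 (bottom), in alphabetical order within a list; filled points passed the adjusted threshold. On day 6, 12 of the 19 cilium genes and 7 of the 11 further targets are filled below 0.

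Other cell type markers moved beside Gli2, Boc and Gli1. The 5 fibroblast markers summed to 399 to 439 CPM in WT growth medium against 22.3 to 30 in the labelled KO, to 1496 to 1694 against 88.7 to 128 CPM on day 1, to 5149 to 5827 against 311 to 559 CPM on day 3, and to 5499.6 to 7636 against 967 to 1015 CPM on day 6. Of the 3 fibroblast genes tested, 1, 0, 1 and 1 were higher and 2, 3, 2 and 1 lower on days 0, 1, 3 and 6. Col1a1 was lower in all labelled KO groups, Pdgfra stood at 8.1 ± 1.85 against 15.5 ± 0.971 CPM in growth medium and 20.4 ± 3.06 against 21 ± 3.33 on day 6, Dcn was at 49.4 ± 10.6 against 29.5 ± 6.01 CPM on day 6, and Lum had at most 8 counts. The part of these markers in the lower Gli2, Boc and Gli1 was not tested. Of the 5 chondrocyte markers, 2 were tested, with 1 lower on day 1 and on day 3. The list summed to 173 to 182 CPM in WT and 78.1 to 146 in the labelled KO on day 1, 136 to 151 and 92 to 108 on day 3, and 132 to 139.8 and 114 to 124 on day 6. Of the 6 adipocyte markers, 2 were tested, and both were lower in the labelled KO at all 4 time points. The list summed to 30.2 to 32.2 CPM in WT and 14.6 to 16.2 in the labelled KO in growth medium, 35.1 to 36.8 and 14.2 to 21.6 on day 1, 27.3 to 30.3 and 16.4 to 17.4 on day 3, and 38.9 to 45.8 and 23.4 to 24.9 on day 6. Its part in the lower Gli2 and Boc was not tested. Of the 5 osteoblast markers, 1 was tested, and it was higher on days 1 and 3; the list summed to 50.8 to 60.4 against 59.1 to 66.2 CPM on day 6.

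Patterns over the 8 group means (mean log2 CPM) were set side by side, as a description. The 8 means come from cells of 2 labels at 4 time points, fitted with 1 scaling, and no test is given. Hhip ran with Smo (Pearson r = 0.917, n = 8 group means), Gli3 (0.904) and Gli1 (0.81), Gli2 with Boc (0.812), and Cdon with Gas1 (0.778), while Gli1 and Gas1 ran opposite (-0.892). These are among the strongest pairs of members. Others were near 0, such as Gli1 and Boc (0.0859) and Cdon and Ptch1 (-0.0112). Hhip was chosen for its fall in WT, whose means are among the 8, so a high r with other falling genes follows in part from that choice. Among 10616 other named genes with a mean of at least 5 CPM in some group, those most like Hhip were Adgra3 (0.993), Cd24a (0.993) and Wrb (0.992). Cd24a, a small surface glycoprotein, went from 85.6 to 5.9 CPM over the WT course and from 51.8 to 2.9 CPM over the labelled KO course, while Adgra3, an adhesion receptor, went only from 101 to 65 CPM in WT. Closest to Gli1 were Rbpms2 (0.982), Aldh5a1 (0.98) and Smad9 (0.979). Smad9, a transducer of bone morphogenetic protein signals, stood at 13.9, 4.12, 2.75 and 3.94 CPM in WT and 12.1, 1.86, 0.463 and 0.752 CPM in the labelled KO on days 0, 1, 3 and 6. Closest to Cdon were Sar1a (0.965), Rnf19a (0.963) and Tmem263 (0.955), where the group means of Sar1a ran only from 179 to 201 CPM.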

How the data were processed

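Poly(A) RNA of C2C12 cells was sequenced. Per the submitters' processing notes, Bowtie2, RSEM and the mm10 build were used, with no versions; which annotation was counted, and whether strand was used, is not given in the sources used here. The authors deposited a table of estimated counts per gene symbol, in whole numbers, and a table of TPM values, which scale to transcript length, made by the authors. Counts were rounded, which changed nothing. Genes with overlapping or near-identical copies cannot be separated further in these tables.

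The counts of all 23 libraries were fitted in 1 group-means model by edgeR 4.0.16 in R 4.3.3 (TMM scaling, filterByExpr with a minimum count of 10 and total of 15, quasi-likelihood F-test), with Benjamini-Hochberg adjustment over 14187 genes, a threshold of 0.05, and 12326 rows at 0 in every library. The SE is the log2 fold change divided by the root of F. CPM used the scaled library sizes, and log2 CPM a prior count of 2. DESeq2 1.42.0, limma 3.58.1 on log2(TPM + 1) and log2(TPM + 0.1), other scalings and filters, a replicate block, and each library left out were alternatives. The code was tested on simulated data. Floors cover counting error only.

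Named genes were the members, Runx1, list genes past the threshold in 1 direction in at least 3 of the 4 genotype comparisons or among the 2 largest changes of a list and comparison with a group mean of at least 1 CPM, and the 3 genes with the highest Pearson correlation to each of Hhip, Gli1 and Cdon over the 8 group means; some that met the rule were left out of the text. Shh, Ihh, Dhh, Sufu and single marker genes were named outside that rule, after their values were seen. 1 listed gene is not reported here and was left out of the lists. Members, lists and markers were chosen with earlier results of these data known. Promoter sequences came from RefSeq (GRCm38.p6), which held 7 of the 9 members. Figures used matplotlib 3.10.9.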

Additional observations from a re-analysis of the deposited data

Results flagged for a closer look

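For 2 genes, the change since growth medium differed between labelled KO and WT by the test of the difference itself. Ptch1 on day 3 had an interaction of -0.79 on the log2 scale, with the labelled KO lower than its growth medium and WT higher. Gas1 had an interaction of 1.08 on day 3 and 0.70 on day 6, with both genotypes higher than in growth medium and the labelled KO more so. All 3 terms share the WT growth medium group, which had 2 libraries. The Gas1 day 6 call was lost without either of them, without any 1 of 9 other libraries (0.53 to 0.81, adjusted p 0.0514 to 0.225, over the left-out libraries that ended the call), and by limma on TPM (0.63 to 0.64, adjusted p 0.0807 to 0.0877). The Ptch1 day 3 call was lost without library 2 of WT growth medium (-0.69, adjusted p = 0.0977).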

How the results depend on the processing

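Of 105 member values, 54 passed the threshold, and 43 of these kept direction and call under all 32 alternatives; 11 lost the call in at least 1, named beside the results. Of the 51 that did not pass, 12 passed in at least 1 alternative and 18 changed sign in at least 1; 23 of the 51 were under 0.15 in size and are given as levels. With no filter on low counts, 5 members passed between the genotypes on day 1, against 3. For the interaction on day 6 (1 in the edgeR fit), 2 passed with only the groups compared and with DESeq2, and 0 with limma on log2(TPM + 1) and on log2(TPM + 0.1). The interaction of Gli1 on day 3 was 0.13 with limma on log2(TPM + 1), against -0.70. Leaving out each library gave 2 to 3, 3 to 5, 5 to 7 and 5 to 7 members between the genotypes on days 0, 1, 3 and 6. For the labelled KO course it gave 6 to 7, 6 to 8 and 8 to 8 on days 1, 3 and 6 against growth medium, 3 to 6 from day 1 to day 3 and 5 to 6 from day 3 to day 6, and for the interactions 0 to 0, 1 to 3 and 0 to 2. No sign was seen that replicate numbers pair the samples: the correlations of same-numbered deviations ran from -0.24 to 0.125, and no comparison had all over 0.1. With 2 or 3 libraries per group this cannot exclude pairing. With the replicate as a block the 12 counts of members were 3, 3, 6 and 6 between the genotypes, 7, 8, 8, 4 and 6 in the labelled KO course and 0, 2 and 1 for the interactions, the same numbers as without it. From day 1 to day 3 in the labelled KO the block lost Boc (0.35, adjusted p = 0.0519) and gained Gas1 (0.38, adjusted p = 0.0441); no other member call changed. Counts over all genes moved by over 1.5 times in several settings. Between the genotypes in growth medium, 2479 became 1265 and 1499 without WT library 1 or 2. With only the groups compared, day 1 went from 5981 to 3607, labelled KO day 3 against day 1 from 3790 to 1659, and the day 1 and day 3 interactions from 560 to 239 and from 1519 to 2613. The day 1 interaction was 244 and 148 without WT growth medium library 1 or 2, 325 and 289 without WT day 1 library 1 or 2, 335 and 329 without labelled KO growth medium library 1 or 2, and 919 without labelled KO day 1 library 3. The day 3 interaction was 979 and 829 without WT growth medium library 1 or 2 and 2302 without library 2 of labelled KO day 1, and without the same 3 libraries the day 6 interaction went from 1839 to 1215, 1184 and 2844. The cause was not tested. Depth limits Hhip and Gli1 most, with as few as 3 to 12 counts per library for Hhip on labelled KO day 6 and 5 to 13 for Gli1 on labelled KO day 3.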
